A study of Sus scrofa with 7 samples.

Results

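The dopamine transporter gene SLC6A3 and 6 genes that make, store or break down monoamines were followed in the hypothalamus of piglets whose distal ileum had been infused with antibiotics. The members are SLC6A3, DDC, SLC18A2, MAOA, MAOB, GCH1 and QDPR, and their rows were looked up in the authors' deposited table by gene symbol, or by gene ID where the symbol was absent. Of these 7 genes 6 had a row among the 16991 features of the table: 4 were found by symbol, and 2 (DDC, entered under its older name AADC, and SLC18A2, entered under its Ensembl ID) by gene ID. GCH1 had no matched row and is not analysed here. All 6 had been tested by the authors, as had 13352 features in all.

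The antibiotic group was given 10 mL of saline with 3 drugs at daily doses per kg of body weight: 150 mg for ampicillin, 30 mg for metronidazole and 4 mg for gentamicin, and the control group was given 10 mL of saline alone. Every piglet was of the strain Duroc x Landrace x Large White, was 45 days old, lived alone in a metabolic cage and had been fitted with a T-cannula that opened into the distal ileum. RNA-seq libraries came from 3 antibiotic and 4 control hypothalami, out of 12 randomised piglets. The deposited table gives 1 FPKM value (mapped fragments scaled to transcript length and to the total of mapped fragments) per gene and group. It therefore shows no spread between animals and no depth per library, and the only replicate error in what follows is whatever the authors' p and q contain. Every FPKM, log2 fold, p and q below comes from that table, linear folds were computed from its log2 folds, and a gene is said to have risen or fallen only where the authors' q was under 0.05. Summed FPKM over all features was 563424 in the antibiotic column and 1.23e+06 in the control column. This gap was not shared by most tested features, whose median log2 of antibiotic over control was -0.03.

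Dopamine is made from tyrosine by tyrosine hydroxylase, which needs tetrahydrobiopterin, and then by the decarboxylase DDC, which also completes serotonin synthesis. The vesicular transporter encoded by SLC18A2 loads the amine into synaptic vesicles, the plasma membrane transporter encoded by SLC6A3 takes released dopamine back up, and the mitochondrial oxidases encoded by MAOA and MAOB degrade it. GCH1 catalyses the first step of tetrahydrobiopterin synthesis, and QDPR regenerates the cofactor after use. In the mammalian hypothalamus, dopamine neurons of the arcuate region restrain prolactin release from the pituitary.

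SLC6A3 and DDC rose in the antibiotic group, and the other 4 measured members did not pass the test. At q under 0.05 in the authors' deposited table, 2 of 6 members rose and none fell, against 41.1% of all tested features that passed, 19.0% upwards and 22.2% downwards. No member was lower at an unadjusted p under 0.05 either. Both members that rose also carried the authors' significant mark, which asks in addition for a 2-fold change and which 7.37% of tested features received in the upward and 8.44% in the downward direction. The median log2 of antibiotic over control was 0.26 over the 6 members and -0.03 over the 13339 tested features with a finite fold.

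**Figure D1:**
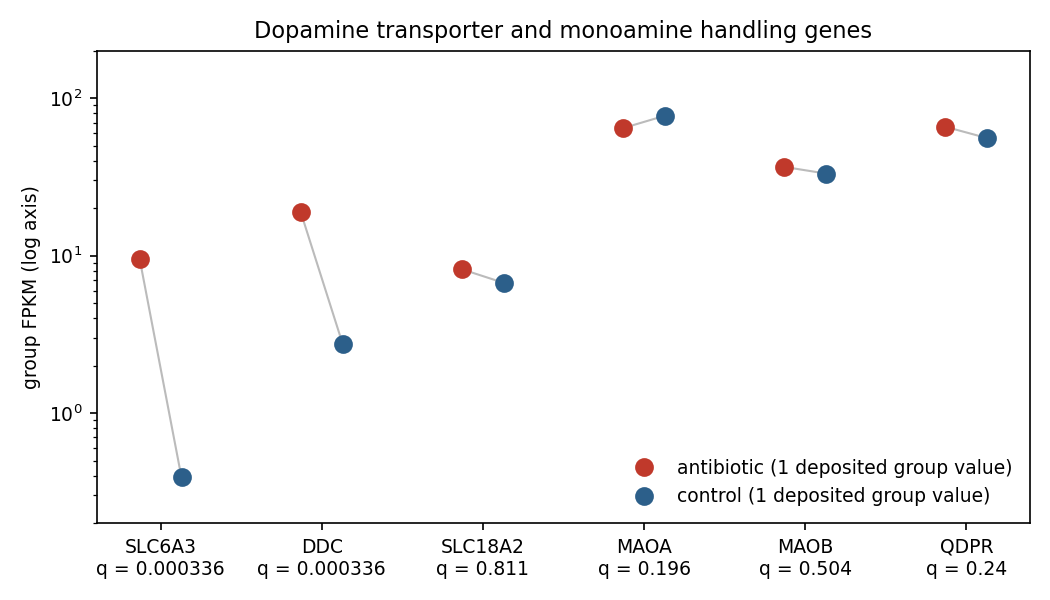
Group FPKM of the 6 measured members on a log axis, with the antibiotic value (red) left of the control value (blue) and the authors' q under each name. Each point is 1 deposited group value and has no error bar. SLC6A3 lies at 9.57 FPKM in antibiotic and 0.390 in control and DDC at 18.9 in antibiotic and 2.75 in control, while the points of the other 4 genes lie close together.

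SLC6A3 encodes the transporter that marks dopamine neurons by clearing dopamine from the synapse. It stood at 9.57 FPKM in the antibiotic group and 0.390 FPKM in the control group of the authors' deposited table (24.5-fold, log2 of 4.62, q = 0.000336). This log2 fold was the 8th highest of 13339. Of all tested features 55.7% had a lower level than SLC6A3 in the antibiotic column, whereas only 0.794% did in the control column, so its control value was near the bottom of what the authors had tested. With 1 FPKM added to both values the log2 fold was 2.93. In bulk tissue a change in the number of cells that express a gene and a change in its RNA per cell cannot be told apart.

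DDC encodes aromatic L-amino acid decarboxylase, which turns L-DOPA into dopamine and 5-hydroxytryptophan into serotonin. The authors' deposited table lists it at 18.9 FPKM in antibiotic and 2.75 FPKM in control (6.87-fold, log2 of 2.78, q = 0.000336), the 58th highest log2 fold. The share of tested features below it was 73.2% in the antibiotic column and 22.1% in the control column. Its gain of 16.1 FPKM was larger than the 9.18 FPKM of SLC6A3, although its fold was smaller. The 2 genes share the smallest q of the table, so the q does not rank them.

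SLC18A2 encodes VMAT2, the vesicular transporter used by dopamine, noradrenaline, serotonin and histamine neurons. It stood at 8.19 FPKM in antibiotic and 6.71 FPKM in control in the authors' deposited table (1.22-fold, log2 of 0.29, q = 0.811). The authors' p for this row, 0.751, was larger than that of 270 of the 324 tested features whose values in both groups lay within 20% of its own. CYBB and INSR, the 2 named features nearest to it in both columns, had q of 0.263 and 0.258 in the deposited table. A q of this size does not show that SLC18A2 was alike in the groups.

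MAOA and MAOB encode the monoamine oxidases of the outer mitochondrial membrane, which differ in their preferred amines. MAOA was listed at 64.5 FPKM in antibiotic and 77.4 FPKM in control (log2 of -0.26, q = 0.196), the only member with a negative log2 fold in the authors' table. MAOB was listed at 36.6 FPKM in antibiotic and 33.2 FPKM in control (log2 of 0.14, q = 0.504). Neither passed the test, and both lay above at least 83.1% of tested features in each group. QDPR encodes dihydropteridine reductase, which recycles tetrahydrobiopterin, and was listed at 65.8 FPKM in antibiotic and 55.7 FPKM in control (log2 of 0.24, q = 0.240 in the authors' table).

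The order of the members by FPKM, which is scaled to transcript length, differed between the groups. In the antibiotic group it ran from QDPR and MAOA through MAOB, DDC and SLC6A3 to SLC18A2, and in the control group from MAOA and QDPR through MAOB, SLC18A2 and DDC to SLC6A3. Neighbours in this order cannot be separated, since no spread is available. The highest member exceeded the lowest 8.03-fold in antibiotic and 198-fold in control. Ratios between members within a group do not change when a whole group column is multiplied by a factor. SLC6A3 over SLC18A2 was 1.17 in antibiotic and 0.0581 in control, and DDC over SLC18A2 was 2.31 in antibiotic and 0.409 in control. SLC6A3 over DDC was 0.507 in antibiotic and 0.142 in control, and MAOA over MAOB was 1.76 in antibiotic and 2.33 in control. These ratios are single values with no test.

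**Figure D2:**
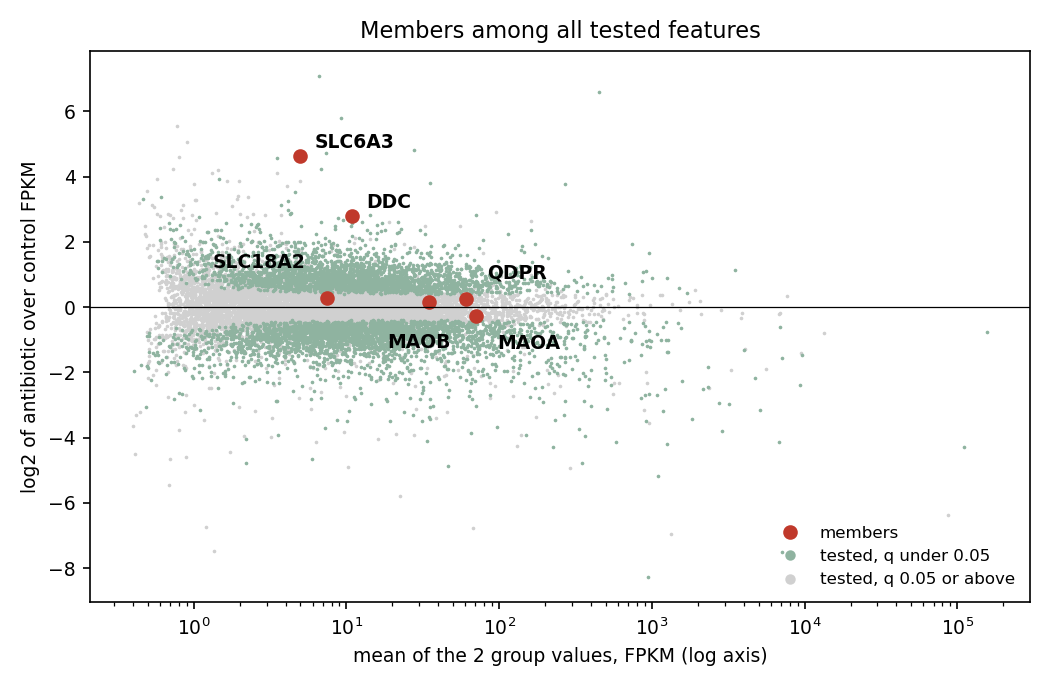
Log2 of antibiotic over control FPKM against the mean of the group values (log axis) for tested features with a finite fold, coloured by the authors' q, with the 6 members in red. SLC6A3 and DDC lie near the upper edge of the cloud at 4.62 and 2.78, and SLC18A2, MAOA, MAOB and QDPR lie between -0.26 and 0.29.

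In the deposited table SLC6A3 (ENSSSCG00000017121) lies at chromosome 16, 85853596 to 85887788, and DDC (ENSSSCG00000022009) at chromosome 9, 150076902 to 150251709. SLC18A2 (ENSSSCG00000020671) lies at chromosome 14, 138758833 to 138903799, and QDPR (ENSSSCG00000029508) at chromosome 8, 12329453 to 12351892. MAOA (ENSSSCG00000012257) lies at chromosome X, 43132722 to 43209051, and MAOB (ENSSSCG00000023215) next to it at 43355506 to 43474320. The submitters' processing notes name the pig build susScr3 without tying these coordinates to it, and the table gives no exons or strand.

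DDC and SLC18A2 each share their whole listed locus with another row, as do 3498 features of the table, so the locus is a stretch that holds more than 1 gene model. The row that shares the DDC locus, ENSSSCG00000015630, was listed at 0 FPKM in antibiotic and 0.154 FPKM in control in the authors' deposited table and had not been tested. The row that shares the SLC18A2 locus is PDZD8, at 20.8 FPKM in antibiotic and 21.3 FPKM in control (log2 of -0.04, q = 0.920 in the deposited table). PDZD8 is also the neighbour of SLC18A2 in the RefSeq gene table of assembly Sscrofa11.1. Its level was above that of SLC18A2 in both groups, and whether reads were divided between these rows was not tested. SLC6A3, MAOA, MAOB and QDPR overlap no other row.

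The tested rows beside SLC6A3 had smaller log2 folds, the highest being 1.29. Within 200000 bases of it the authors' table holds 6 rows, of which 4 were tested and 2 rose. LPCAT1, a phospholipid acyltransferase gene, stood at 12.1 FPKM in antibiotic and 7.49 in control (log2 of 0.69, q = 0.00352), and SLC12A7, a potassium chloride cotransporter gene, at 3.42 in antibiotic and 1.40 in control (log2 of 1.29, q = 0.0230) in the deposited table. Of the rows around DDC only GRB10 had been tested, at 3.59 FPKM in antibiotic and 2.84 in control (log2 of 0.34, q = 0.237 in the deposited table). These nearby rows were chosen by position after their values could be seen.

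With only 2 group values per gene, likeness to a member can be measured only as the distance between log2(FPKM + 0.1) values in both columns. Nearest to SLC6A3 were a merged row containing SLA-DOB2 (distance 0.528), a SAMHD1 row (0.585) and PRPH (0.605), which encodes the neuronal filament peripherin. The SLA-DOB2 row and this SAMHD1 row did not pass the authors' test (q = 0.495 and 0.199 in the deposited table). PRPH did pass (q = 0.000336). Another SAMHD1 row, with a higher mean level, stood at 5.57 FPKM in antibiotic and 7.42 in control (q = 0.111 in that table). No other tested feature lay within 20% of SLC6A3 in both groups. Nearest to DDC were NRARP, RGR and SYT2, at distances of 0.175, 0.228 and 0.400, and each rose with q = 0.000336 in the deposited table. The 3 nearest to MAOA were GARS, FMNL2 and DNAJB1, those of MAOB were TMX4, SHISA5 and ZNF532, and those of QDPR were POLR2I, FSCN1 and SMPD1. Besides CYBB and INSR, the merged row ENO3,RNF167 was near SLC18A2. None of the features named as nearest to MAOA, MAOB, QDPR and SLC18A2 passed the authors' test.

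The wider set of genes for monoamine synthesis, transport and breakdown moved in both directions. Of 12 tested members of this list, which contains 5 of the genes above, 6 were higher and 2 lower at the authors' q, and 4 missed it (median log2 of 0.68). Without those 5 genes, 4 of 7 tested rose and 2 fell. The shares over all tested features were 19.0% up and 22.2% down. SLC29A4, a low-affinity monoamine carrier of the plasma membrane, rose 2.09-fold to 11.2 FPKM in antibiotic, against 5.33 in control (q = 0.0241), and AANAT, the acetyltransferase of melatonin synthesis, rose 3.61-fold to 4.67 FPKM, against 1.29 in control (q = 0.0164 in the deposited table). SLC22A3, another low-affinity carrier, stood at 0.925 FPKM in antibiotic and 0.887 in control (q = 0.892 in the deposited table). The histamine genes HDC and HNMT were the 2 that fell, HDC to 5.66 FPKM in antibiotic against 20.5 in control (q = 0.000336) and HNMT to 11.3 in antibiotic against 18.8 in control (q = 0.00138, authors' table). The serotonin genes SLC6A4 and TPH2 rose with larger folds than SLC6A3, SLC6A4 to 13.1 FPKM in antibiotic, against 0.0965 in control, and TPH2 to 18.0 in antibiotic, against 0.329 in control (both q = 0.000336 in the authors' table).

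Genes specific to noradrenaline were close to 0. DBH, which makes noradrenaline, stood at 0.0592 FPKM in antibiotic and 0 in control, SLC6A2, its transporter, at 0.0328 in antibiotic and 0 in control, and PNMT, which makes adrenaline, at 0.0512 in antibiotic and 0 in control in the deposited table, none of them tested. TPH1, SLC18A1 and SLC22A2 were at or below 0.436 FPKM in both groups and had not been tested either. No row was matched to TH, ASMT or SULT1A1, which are not analysed here, so the rate-limiting enzyme of dopamine synthesis is missing from this account.

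**Figure D3:**
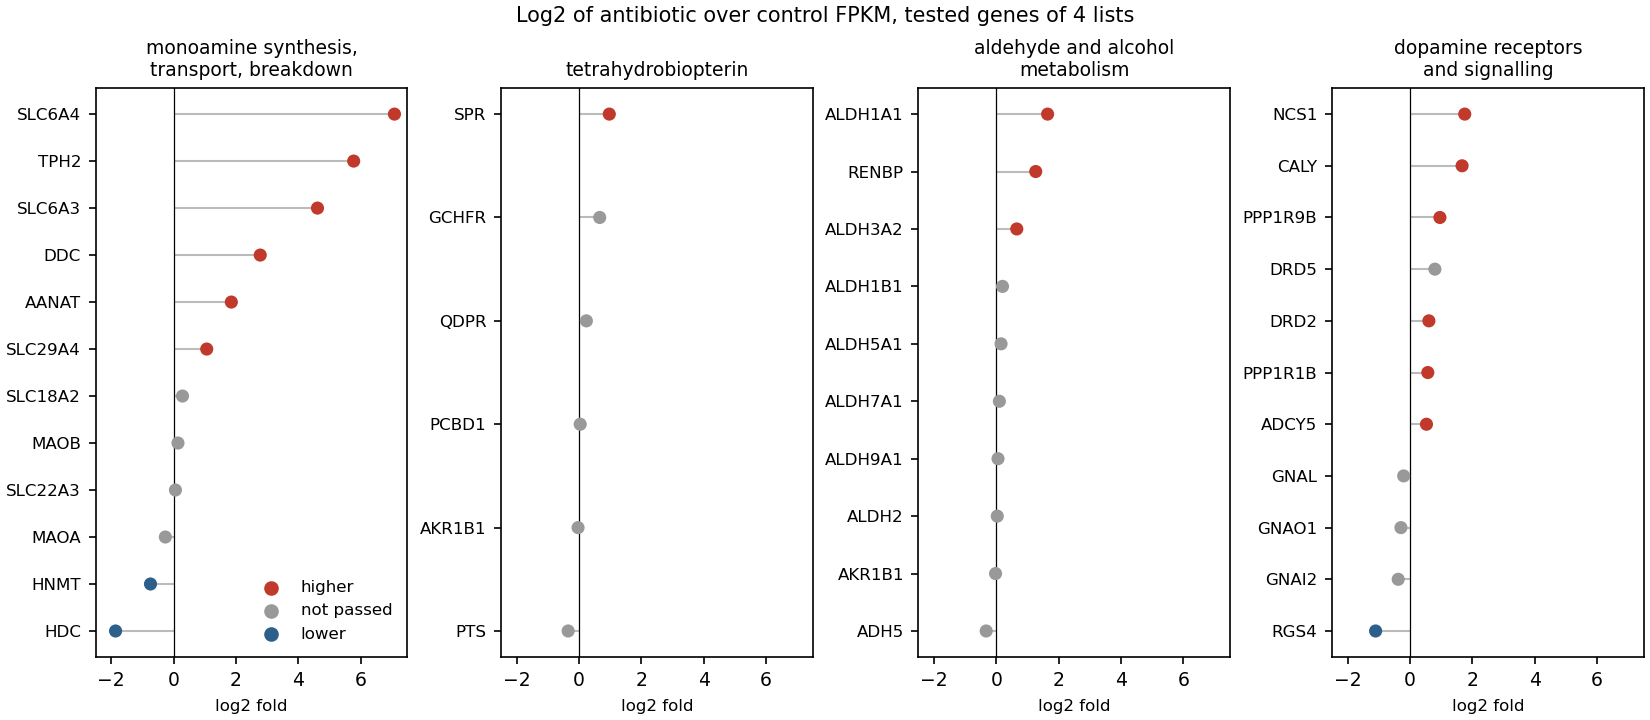
Log2 of antibiotic over control FPKM for the tested genes of 4 lists, coloured by whether the authors' q was under 0.05 and in which direction. In the first panel SLC6A4, TPH2, SLC6A3 and DDC stand apart at 7.09, 5.78, 4.62 and 2.78, and every other gene in the 4 panels lies between -1.86 and 1.85.

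The genes that make and recycle tetrahydrobiopterin, around QDPR and the unmatched GCH1, gave 1 rise among 6 tested, beside 19.0% of all tested features, none lower by q or at an unadjusted p under 0.05, and 5 that missed the threshold (median log2 of 0.14). SPR, sepiapterin reductase, which carries out the last step of synthesis, rose to 54.6 FPKM in antibiotic, against 27.8 in control (1.96-fold, q = 0.000336 in the authors' deposited table). PTS, which acts between GCH1 and SPR, stood at 19.3 FPKM in antibiotic and 24.5 in control (q = 0.515), and PCBD1, the dehydratase that acts before QDPR in recycling, at 67.7 in antibiotic and 65.8 in control (q = 0.870 in the deposited table). GCHFR, the feedback regulator of GCH1, stood at 15.7 FPKM in antibiotic and 9.88 in control (q = 0.209 in that table), in a row that overlaps several others. PCBD2 and CBR1 had no matched row.

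Enzymes that clear the aldehydes produced by MAOA and MAOB come next in the pathway. Of 10 tested genes 3 rose, beside 19.0% of all tested features, none fell at the authors' q or at an unadjusted p under 0.05, and the remaining 7 missed the threshold (median log2 of 0.12). ALDH1A1, an aldehyde dehydrogenase of a subset of midbrain dopamine neurons in mouse and human, rose to 23.6 FPKM in antibiotic, against 7.55 in control (3.12-fold, q = 0.000336 in the authors' table). ALDH3A2, which oxidises fatty aldehydes, rose 1.57-fold to 60.3 FPKM in antibiotic, against 38.4 in control (q = 0.00595 in the authors' table). The other rise was that of RENBP, which encodes a sugar epimerase and does not act on aldehydes (8.22 FPKM in antibiotic, 3.43 in control, q = 0.00430). ALDH2, the mitochondrial enzyme, stood at 25.9 FPKM in antibiotic and 25.4 in control (q = 0.926), AKR1B1, aldose reductase, at 76.6 in antibiotic and 78.1 in control (q = 0.915), and ADH5, which also clears formaldehyde, at 52.4 in antibiotic and 65.8 in control (q = 0.118 in the deposited table). ALDH1B1, ALDH5A1, ALDH7A1 and ALDH9A1 had q between 0.513 and 0.831, and AKR1A1 had no matched row. ALDH2 has 2 rows at 1 locus, and the row with the higher mean was used.

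Cofactor genes of MAOA and MAOB were measured too. Of 3 tested genes for the flavin cofactor of these enzymes, SLC52A3, a riboflavin transporter, rose 2.92-fold to 6.79 FPKM in antibiotic, against 2.32 in control (q = 0.000336), and FLAD1, FAD synthase, rose to 16.3 FPKM, against 8.71 in control (q = 0.0142, authors' table). RFK, riboflavin kinase, stood at 7.74 FPKM in antibiotic and 7.57 in control (q = 0.909 in the deposited table). The rises of SLC52A3 and FLAD1 stand beside 19.0% of all tested features that rose.

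Dopamine receptor and signalling genes gave 6 rises and 1 fall among 11 tested, while 4 missed the threshold (median log2 of 0.57). Over all tested features 19.0% rose and 22.2% fell, which is the share to set beside each count in this paragraph. DRD2, the receptor that also acts as autoreceptor on dopamine neurons, rose 1.53-fold to 5.85 FPKM in antibiotic, against 3.84 in control (q = 0.0317 in the authors' table). NCS1, a calcium sensor that binds DRD2, rose to 214.5 FPKM in antibiotic, against 63.4 in control, and CALY, a partner of the D1 receptor, to 220.1 in antibiotic against 69.0 in control (both q = 0.000336 in the authors' table). PPP1R9B, ADCY5 and PPP1R1B, which act downstream of these receptors, rose as well, and RGS4, which shortens G protein signals, fell to 50.2 FPKM in antibiotic against 107.7 in control (q = 0.000336 in the authors' table). The most abundant gene of the list, the G protein gene GNAI2, stood at 220.8 FPKM in antibiotic and 286.5 in control (q = 0.0727 in the authors' table). Among 10 genes tested whose proteins act on the dopamine transporter or its vesicles, 5 rose and none fell by the authors' q (median log2 of 0.36), and 3 rose at a q under 0.01. They were STX1A, PICK1, CAMK2A, FLOT1 and DNAJC6, and PICK1, which binds the transporter's tail, rose 1.87-fold to 20.9 FPKM in antibiotic, against 11.2 in control (q = 0.00138 in the authors' table). GPRIN3, at 1.30 FPKM in antibiotic and 1.73 in control (q = 0.0928), was the 1 gene of this list that was lower at an unadjusted p under 0.05.

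SLC6A3 belongs to the SLC6 family of sodium-coupled transporters. This family was added after the values could be seen. Among 9 other SLC6 genes tested by the authors and described here, 5 rose, beside 19.0% of all tested features, none fell by q or at an unadjusted p under 0.05, and 4 missed the threshold (median log2 of 0.67). SLC6A17, a vesicular amino acid transporter, rose to 40.2 FPKM in antibiotic, against 11.2 in control (q = 0.000336 in the authors' table). The deposited log2 fold of SLC6A17 is 1.69, whereas the ratio of these 2 values gives 1.85. SLC6A7, a proline transporter, rose 2.57-fold to 5.07 FPKM in antibiotic, against 1.97 in control, and SLC6A8, the creatine transporter, with the highest mean of the 2 group values among the family members described here, rose 1.59-fold to 36.8 FPKM in antibiotic, against 23.2 in control (both q = 0.000891 in the authors' table). SLC6A12 also rose, and SLC6A7, SLC6A8 and SLC6A12 had smaller log2 folds than SLC6A3. In the table's own annotation, 46 tested features, MAOB among them, belonged to the dopaminergic synapse. Of these 14 rose and 10 fell (median log2 of 0.05), beside 19.0% and 22.2% of all tested features.

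Markers of dopamine neurons beyond the members rose in part. Of 13 tested genes in this list other than SLC6A3, DDC and SLC18A2, 4 rose and 1 fell by the authors' q. The remaining 8 missed the threshold, and over all tested features 19.0% rose and 22.2% fell. RET, a receptor for glial-derived growth factors, rose 3.35-fold to 6.42 FPKM in antibiotic, against 1.92 in control, and SLC10A4, a vesicle protein of monoamine and cholinergic neurons, rose 2.54-fold to 16.9 FPKM, against 6.64 in control (both q = 0.000336 in the authors' table), beside ALDH1A1 and DRD2. CALB1, the calcium buffer calbindin, fell to 3.50 FPKM in antibiotic, against 9.02 in control (q = 0.000336 in that table). NR4A2, a regulator that dopamine neurons keep into adulthood, stood at 7.30 FPKM in antibiotic and 7.92 in control (q = 0.688 in the deposited table). OTX2, another regulator, stood at 11.4 FPKM in antibiotic and 9.68 in control (q = 0.381 in the deposited table). The other 7 of 9 midbrain regulators in the list were picked out by a level under 2 FPKM in antibiotic. PITX3, LMX1A, LMX1B, FOXA1, FOXA2, EN1 and EN2, which act in developing and adult midbrain dopamine neurons, were all higher in antibiotic but low. They lay between 0.282 and 1.76 FPKM in antibiotic and between 0 and 0.174 FPKM in control, with LMX1A and FOXA2 listed at 0 in control. Of these 7 only LMX1B and EN1 had been tested, and neither passed (q = 0.162 and 0.279 in the deposited table). LMX1B is also a gene of the serotonin neuron list described below, so it is not particular to dopamine neurons. The EN2 row overlaps that of INSIG1.

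Marker lists of other cell types moved beside the members, and their part in the SLC6A3 and DDC results was not tested. Counts in these lists stand beside 19.0% of all tested features that rose and 22.2% that fell. Serotonin neuron markers other than MAOB summed to 40.2 FPKM in antibiotic and 5.16 in control, with 3 of 8 tested genes higher (SLC6A4, TPH2 and GATA3) and none at 0. HTR1A, of the same list, stood at 1.41 FPKM in antibiotic and 0.657 in control (q = 0.0503 in the authors' table). Noradrenaline neuron markers summed to 8.31 FPKM in antibiotic and 14.2 in control, with both tested genes, ADRA2A and GAL, lower. The other 4 matched genes of that list were untested and higher in the antibiotic column, with TFAP2B at 0.607 FPKM in antibiotic and 0.0892 in control and DBH, SLC6A2 and PHOX2A at 0 in control. The 3 matched genes of the histamine neuron list, HDC, HNMT and LMO4, fell and summed to 42.2 FPKM in antibiotic and 100.4 in control. LMO4 made up 25.2 of that sum in antibiotic and 61.0 in control. How specific these genes are to histamine neurons was not tested. Among peptide genes of the labelled tissue, AVP stood at 181.3 FPKM in antibiotic and 210.6 in control (q = 0.461 in the authors' table). GHRH, at 0.131 FPKM in antibiotic and 0.528 in control, had not been tested. POMC and AGRP were higher in antibiotic without passing. POMC stood at 4.34 FPKM in antibiotic and 2.55 in control (q = 0.0938 in the authors' table). AGRP stood at 3.09 FPKM in antibiotic and 0.211 in control (q = 0.302 in that table). HCRT, TRH and CRH were lower in antibiotic and did not pass either. PMCH, which encodes melanin-concentrating hormone, fell to 18.6 FPKM in antibiotic, against 281.6 in control, and OXT, which encodes oxytocin, fell to 96.8 in antibiotic, against 310.1 in control (both q = 0.000336 in the authors' table). Hypothalamus markers summed to 332 FPKM in antibiotic and 836 in control, with 3 of 10 tested genes lower (PMCH, OXT and FEZF1), LHX9 higher and none at 0.

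MAOB and QDPR are also expressed in glia, and genes of the astrocyte and oligodendrocyte lists changed in both directions. Among all tested features 19.0% rose and 22.2% fell. Of 8 tested astrocyte markers 4 rose and 1, AQP4, fell, with summed levels of 7359 FPKM in antibiotic and 4029 in control, of which GFAP made up 4819 in antibiotic and 2185 in control. FGFR3 rose 6.09-fold to 37.2 FPKM in antibiotic, against 6.11 in control (q = 0.000336 in the authors' table). Among 11 oligodendrocyte markers that had been tested 2 rose and 4 (ASPA, MAL, UGT8 and ERMN) fell, of which 1, UGT8, has a row that overlaps no other, with summed levels of 12491 FPKM in antibiotic and 10559 in control. Of 11 tested endothelial and pericyte markers 5 rose and none fell by the authors' q (1, RGS5, was lower at an unadjusted p under 0.05), with sums of 309.3 FPKM in antibiotic and 210.7 in control. Of those 5, 1 is a row named VWF in the table, whose gene ID belongs to ANO2 in the gene name table, so its values are not given as those of VWF. Of 10 tested general neuron markers 6 rose and 1 (STMN2) fell, and they summed to 1894 FPKM in antibiotic and 1378 in control. The largest rises were those of NEFM (3.65-fold), NEFH (3.03-fold), TUBB3 (2.83-fold) and SYP (2.59-fold), which share the smallest deposited q, 0.000336. NEFL and ELAVL3 rose less (1.66-fold with q = 0.00291 and 1.55-fold with q = 0.00332). Rises past 2-fold were thus not confined to the lists of dopamine genes. MAP2, SNAP25 and SYT1 were lower in antibiotic without passing (q = 0.0950, 0.805 and 0.278 in the authors' table). Of these, MAP2 was lower at an unadjusted p under 0.05. None of these lists had a gene at 0. The part of these cell types in the MAOA, MAOB and QDPR values was not tested.

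**Figure D4:**
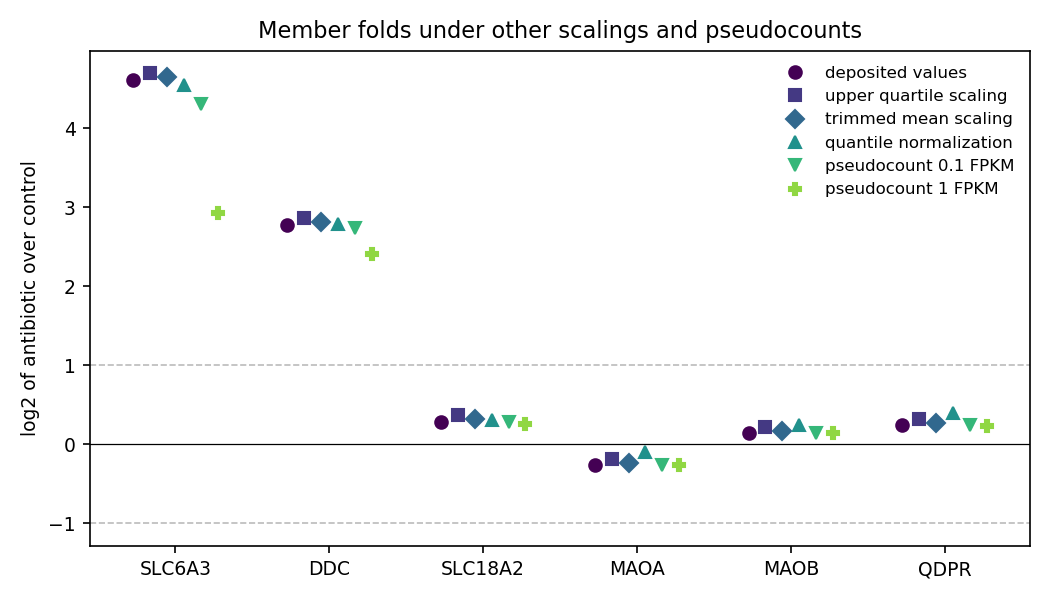
Log2 of antibiotic over control for each member as deposited and after 3 other scalings of the group columns and with 0.1 or 1 FPKM added to both values; dashed lines mark a 2-fold change. SLC6A3 lies between 2.93 and 4.70 and DDC between 2.41 and 2.86 under every setting drawn, and the other 4 members stay between the dashed lines.

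The direction of every member was the same under these settings. After quantile normalization, the setting that moved the log2 folds of MAOA, MAOB and QDPR most, MAOA had a log2 of -0.09, MAOB 0.25 and QDPR 0.39. All 64 genes of the lists that had passed the authors' test kept their direction under the same 5 settings.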

How the data were processed

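RNA-seq libraries of 3 antibiotic and 4 control hypothalami had been made from Trizol RNA with an Illumina TruSeq kit, per the labels' protocols. Bowtie 0.12.2 and the builds susScr3 and mm8 appear in the submitters' processing notes with no role. The authors deposited, per the file headers, 1 FPKM value per gene and group, the log2 fold of antibiotic over control, a test statistic (a score, not used for calls), a p-value and a q-value. How libraries were combined, how strand was counted and which program tested them are not stated by any source used here. The other sheets repeat features called significant and were not used.

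After 6 blank rows were removed, members were matched by symbol or by gene ID through a gene name table. Where a symbol had several rows, the most abundant tested row was taken, except among the nearest features, which were searched row by row. Of 162 symbols in 15 gene lists 139 were matched. Some further genes of these pathways are not reported here and are in no list count. The members and lists were chosen with earlier results of these data known, so no list count is independent support. Genes named by rule were the members, rows overlapping them, the matched genes of 3 pathway lists and the 3 features nearest to each member. From each other list the rule took the 4 genes of smallest p and the most abundant gene. Other genes, among them DRD2, SLC10A4, CALB1, NR4A2, AVP, GPRIN3, TFAP2B and the midbrain regulators, were named outside the rule with their values known. The smallest deposited p, 5e-05, is shared by 2081 features. A planned error estimate from the deposited statistic needed it to match p through the normal distribution in 90% of features. It did so (within 0.1 in log10 p) in 18.8%, so the estimate was void. In 16 of 13339 tested features, no member among them, the deposited log2 fold and the one given by the 2 FPKM values were over 0.01 apart. Scalings were upper quartile, trimmed mean and quantile, each checked on simulated data, computed in Python 3.11.15 with pandas 2.3.3 and numpy 2.4.6. Depth per library is unknown, so no interval is given.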

Additional observations from a re-analysis of the deposited data

How the results depend on the processing

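Among the counts of members, those that rose stayed at 2 with a q under 0.01 and when 5 FPKM were required in at least 1 group, and those that fell stayed at 0 under every alternative run. With rows that overlap another row left out, 1 member rose, because the DDC row overlaps another. With a Bonferroni adjustment over all tested features 0 rose, since the smallest p of the table becomes 0.668 and no feature can pass. The 2 members past 2-fold remained 2 under upper quartile, trimmed mean and quantile scaling and with 0.1 or 1 FPKM added, and in 30 of 30 recomputations no member's log2 fold changed direction or crossed 2-fold. Scaling moved the median log2 of all tested features by at most 0.08. For the gene lists, leaving out overlapping rows was chosen after seeing the data. All 18 recomputed counts of the 3 pathway lists, and 74 of 78 of the other lists, stayed within 1.5 times their value. The 4 that did not were at a q under 0.01 the rises of the flavin list (1) and of the transporter and vesicle list (3) and the falls of the noradrenaline list (1), and without overlapping rows the falls of the oligodendrocyte list (1). No paired analysis was possible because no column holds a single library, and for the same reason leaving out single libraries was not run. Low levels limit SLC6A3 most, whose control value of 0.390 FPKM rests on an unknown number of reads.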
